A study of Mus musculus with 33 samples.

Results

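Trichostatin A was compared with its solvent in HC11 cells across the whole transcriptome. HC11 is a mouse mammary epithelial cell line that was derived from the gland of pregnant mice and is used as a model of mammary epithelial growth and differentiation. The members are the 6 libraries of one table, 3 from cells given 300 nM trichostatin A (TSA) for 24 h and 3 from cells given dimethyl sulfoxide (DMSO), the solvent, out of 33 samples in the series. No guide RNA or editing enzyme is named for these 6 libraries, and the labels give no duration for the DMSO libraries. Of 26230 gene symbols, 12883 reached a normalized count of 10 in at least 3 of the 6 libraries and were tested. The labels number the replicates of each group 1 to 3 and do not say whether they came from separate cultures, so every p-value measures the spread between these libraries, which may be technical.

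Histone deacetylases remove acetyl groups from lysines of histones and of many other proteins. Acetylated histone tails are found at active promoters and enhancers, where bromodomain proteins bind them, and deacetylases act there mostly as catalytic subunits of corepressor complexes such as NuRD, Sin3, CoREST and NCoR. TSA is a hydroxamic acid that binds the zinc ion in the active site of the classical deacetylases and does not inhibit the sirtuins, which use NAD. The study also concerns TRPS1, a GATA-type zinc finger protein that represses transcription together with such complexes in breast epithelium.

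Nearly the whole transcriptome moved. With limma and Benjamini-Hochberg adjustment over all tested genes, 11007 of 12883 genes (85.4%) passed an adjusted p of 0.05, of which 5597 (43.4%) were higher and 5410 (42.0%) lower in TSA. By 2-fold or more, 2720 genes (21.1%) were higher and 2113 (16.4%) lower. Those shares are the background against which every count of genes below has to be read. The median change over all tested genes was 0.01 on the log2 scale and the median absolute change 0.74, while the median SD of log2 values between replicates was 0.084 in DMSO and 0.065 in TSA. Values of the 2 groups did not overlap for 86.4% of the tested genes, so separate groups are the usual case and do not set apart any gene named below. All log2 changes are TSA minus DMSO on log2(normalized count + 1), a scale that compresses the changes of genes near 0, and a gene is said to have risen or fallen when its adjusted p is under 0.05.

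The response was lopsided at its ends. Rises of 4-fold or more numbered 1396 and falls of that size 582. At log2 changes of 4 or more the counts were 407 rises and 36 falls, and at 5 or more 198 and 7. Part of this follows from the filter, since 845 tested genes were under 10 in every DMSO library and at 10 or more in every TSA library and so could hardly be anything but higher, whereas 172 genes were in the opposite position. Among the 11616 genes at 10 or more in every DMSO library the order was the other way round: 38.7% were higher and 46.6% lower, and by 2-fold or more 14.4% were higher and 18.2% lower. For each list whose rises are counted below and in which more than 1 tested member passed the filter only through TSA, the count within those 11616 genes is given as well.

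Direction differed with the starting level. Genes were grouped by their normalized count in DMSO replicate 1, and the change was taken from the other 5 libraries. Between 10 and 30, 35.1% of 1023 genes were higher by 2-fold or more and 15.2% lower. Members under 10 in another DMSO library were tested only if a TSA library reached 10, so the filter favours rises in this group. How much it adds was not tested. Between 300 and 1000 the shares were 13.3% and 15.4% of 3233 genes. Between 3000 and 10000 they were 2.74% and 21.8% of 1421 genes, and at 10000 and over 4.42% and 29.3% of 249 genes. The median change moved from 0.38 in the first of these groups to -0.46 in the last, and both ends kept these signs when DMSO replicate 2 or 3 set the level. In reads, genes higher by 2-fold or more took 5.63% to 5.66% of each DMSO library and 19.5% to 19.7% of each TSA library, and genes lower by 2-fold or more took 22.66% to 22.99% and 7.75% to 7.78%.

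**Figure D1:**
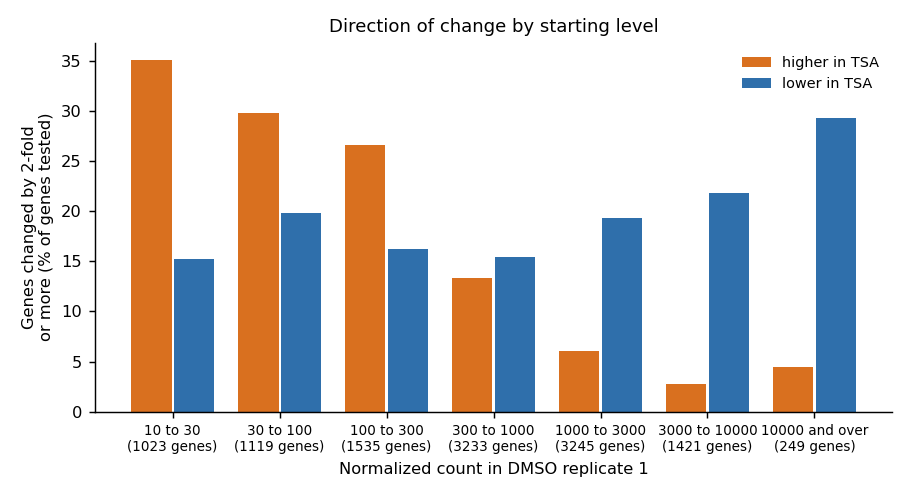
Percent of tested genes higher (orange) or lower (blue) by 2-fold or more in TSA, by the normalized count in DMSO replicate 1, with the change taken from the other 5 libraries. The share higher falls from 35.1% at 10 to 30 to 2.74% at 3000 to 10000, while the share lower is 29.3% at 10000 and over. In the lowest group the filter favours rises.

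DMSO libraries held 18260128 to 19875080 reads and TSA libraries 17788566 to 25585997. A read was found for 16624 to 16899 symbols in DMSO and for 18688 to 19485 in TSA, and TSA replicate 1, the shallowest of the 6 libraries, still had more symbols than any DMSO library. In all, 7191 symbols had no read in any DMSO library, and 87 of these reached 10 in every TSA library. Conversely 4733 symbols had no read in any TSA library, and 2 of these reached 10 in every DMSO library. Mitochondrial genes took 1.97% to 2.23% of DMSO reads and 1.54% to 2.26% of TSA reads. The authors' deposited table of this comparison has 11268 adjusted p-values under 0.05, 6046 for higher and 5222 for lower genes. Of the genes called here, 10425 are called in the same direction in the authors' deposited table, 0 in the opposite direction and 582 not at all. Scaling of each library to a common reference removes any change in the total RNA per cell, and in bulk RNA fewer cells of a kind and less RNA per cell cannot be told apart.

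By their markers the libraries of both groups were epithelial. The 8 epithelial markers summed to 114520 to 125740 normalized counts in the DMSO libraries and to 51096 to 52959 in the TSA libraries. Fibroblast markers (7 genes) summed to 3878 to 4401 and 773 to 858, endothelial markers (6 genes) to 99.6 to 125 and 60.3 to 75.3, and immune markers (7 genes) to 85.9 to 115 and 355 to 383. The fibroblast sum in DMSO was mostly Col1a2, whose values are given below, and of the 4 tested fibroblast markers 2 rose and 2 fell. The immune rise was carried by Cd68, a lysosomal glycoprotein, at 74.7, 90.6 and 103 in DMSO and 349, 339 and 366 in TSA, with Cd3e, the T cell receptor subunit, without a read in all 6 libraries and Ptprc, the pan-leukocyte CD45 gene, at 2.05, 0 and 0 and 4.36, 6.79 and 3.95. The 7 adipocyte markers had no read in DMSO and summed to 18.8 to 29.5 in TSA, with none tested and Cfd without a read. Whether a change in the mix of cells had a part in any gene group below was not tested.

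Promoter sequence was examined for the tested genes that have a single start window in the RefSeq promoter table (GRCm38.p6), 7832 genes, using the 250 bases upstream of the start on both strands. Genes that rose and genes that fell differed in how often this window held the CCAAT box (CCAAT), bound by NF-Y, and the GC box (GGGCGG), bound by Sp1-family factors. Of all motifs searched, these 2 had the widest gaps in share between the higher and the lower genes. Among genes at 10 or more in every DMSO library, the CCAAT box stood in 47.1% of the 1080 windows of genes higher by 2-fold or more, in 30.4% of the 1191 windows of genes lower by 2-fold or more and in 37.9% of all 7167 such windows. The GC box stood in 70.8%, 56.0% and 63.0%. Over all 22862 single-window promoters of the table the shares were 34.7% for the CCAAT box and 32.4% for the GC box. Base composition differs between the classes too: a CpG observed-to-expected ratio over 0.6 was found for 71.6% of the windows of the higher genes, 62.7% of the lower and 73.8% of all. Within these CpG-rich windows the CCAAT shares were 48.6%, 28.8% and 37.4%, and the GC box shares 80.6%, 68.5% and 70.5%. Within CpG-poor windows the CCAAT shares were 43.3%, 33.1% and 39.2%, and the GC box shares 46.3%, 34.9% and 41.9%. These shares are descriptions without a test, and a match is not evidence of a bound site.

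**Figure D2:**
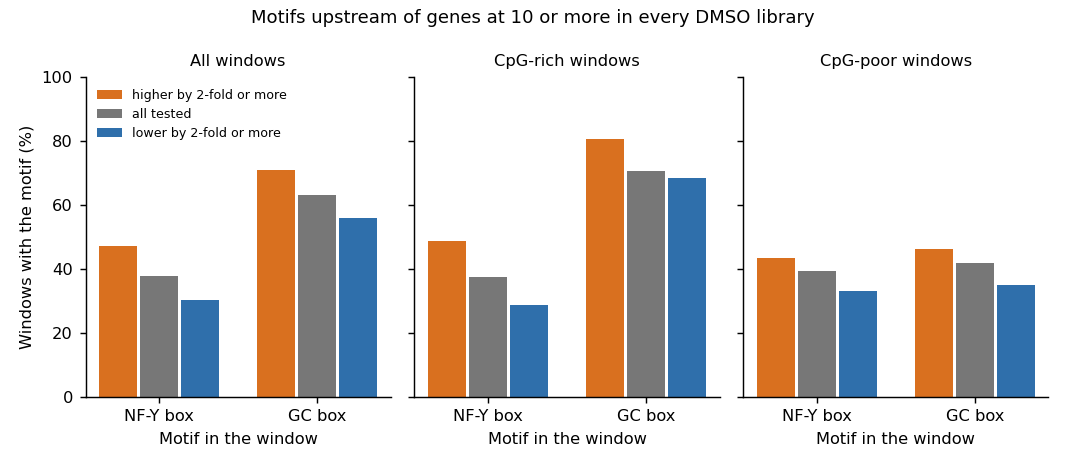
Percent of 250-base upstream windows that hold the CCAAT box (axis label NF-Y box) or the GC box on either strand, among genes at 10 or more in every DMSO library that were higher by 2-fold or more (1080), all such genes (7167) and lower by 2-fold or more (1191), for all windows and for CpG-rich and CpG-poor windows apart. In each panel the higher genes have the tallest bar and the lower genes the shortest.

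The windows of 5 genes are shown because their changes are among those described below and because they carry these boxes in both directions of response; they were chosen after their values were seen. Capitals mark the GC boxes (GGGCGG or its reverse complement CCGCCC) of Cdkn1a and Mmp14 and the CCAAT boxes (CCAAT or its reverse complement ATTGG) of the others, each window is written 5′ to 3′ on the strand of the gene, and its last base is the base just before the annotated start. Cdkn1a, the p21 inhibitor of cyclin-dependent kinases, has 2 annotated starts and so is not among the single-window genes counted above. Its first window holds no GC box. The window of the second start is shown (chr17:29093519-29093768, + strand), with GC boxes ending 99 and 41 bases before the start. Txnip, the thioredoxin-binding arrestin (chr3:96557707-96557956, + strand), has CCAAT boxes ending 133 and 98 bases before it, and Cnn1, the smooth muscle protein calponin (chr9:22099003-22099252, + strand), at 124 and 43. Mmp14, the membrane-anchored collagenase MT1-MMP (chr14:54431348-54431597, + strand), has adjoining GC boxes ending 14 and 8 bases before the start, and Cdk1, the mitotic kinase (chr10:69352913-69353162, - strand), has CCAAT boxes at 204, 76 and 44. Matches of the other box are left in lower case. The Txnip and Cdk1 windows also hold CCGCCC, and the Mmp14 window also holds ATTGG.
Cdkn1a: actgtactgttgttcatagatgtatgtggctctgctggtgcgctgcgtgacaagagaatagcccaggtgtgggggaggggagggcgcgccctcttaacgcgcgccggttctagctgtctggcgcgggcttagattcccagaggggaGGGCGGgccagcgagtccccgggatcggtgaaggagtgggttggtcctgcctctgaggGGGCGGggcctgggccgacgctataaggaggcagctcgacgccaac
Txnip: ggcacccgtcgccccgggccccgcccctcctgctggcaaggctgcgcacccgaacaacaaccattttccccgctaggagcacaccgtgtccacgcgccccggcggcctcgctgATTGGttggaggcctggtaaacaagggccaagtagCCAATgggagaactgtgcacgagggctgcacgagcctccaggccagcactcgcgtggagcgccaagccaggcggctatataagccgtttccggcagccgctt
Cnn1: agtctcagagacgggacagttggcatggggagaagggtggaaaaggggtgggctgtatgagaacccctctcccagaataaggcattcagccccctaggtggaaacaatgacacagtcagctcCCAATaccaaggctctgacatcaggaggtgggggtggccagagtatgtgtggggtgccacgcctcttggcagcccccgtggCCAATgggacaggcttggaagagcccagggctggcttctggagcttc
Mmp14: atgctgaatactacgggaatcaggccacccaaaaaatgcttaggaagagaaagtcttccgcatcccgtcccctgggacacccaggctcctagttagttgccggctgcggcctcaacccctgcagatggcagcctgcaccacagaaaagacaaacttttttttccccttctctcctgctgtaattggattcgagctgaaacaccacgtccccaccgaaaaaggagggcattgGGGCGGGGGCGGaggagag
Cdk1: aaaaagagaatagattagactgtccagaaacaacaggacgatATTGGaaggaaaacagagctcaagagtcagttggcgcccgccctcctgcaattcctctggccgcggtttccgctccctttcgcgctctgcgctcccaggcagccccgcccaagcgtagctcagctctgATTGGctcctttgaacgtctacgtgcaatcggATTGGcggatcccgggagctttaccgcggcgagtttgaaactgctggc

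The first 3 of these genes rose and the last 2 fell. Cdkn1a stood at 683, 671 and 638 normalized counts in DMSO and 5847, 6008 and 6228 in TSA, a rise of 9.07-fold (log2 change 3.18 ± 0.043 SE, adjusted p = 5.91e-14). Txnip went from 532, 505 and 437 to 13592, 13657 and 13687 (log2 change 4.80 ± 0.061 SE), and Cnn1 from 15.3, 15.7 and 13.6 to 2938, 2827 and 2975 (log2 change 7.52 ± 0.091 SE). Every TSA library of all 3 genes lay above every DMSO library by several fold, and the replicates lay close together. Cdk1 fell from 5761, 5627 and 5663 to 1334, 1405 and 1486 (log2 change -2.01 ± 0.043 SE), so genes with CCAAT boxes moved both ways. Other motifs were searched in the same windows, on both strands. Among genes at 10 or more in every DMSO library, the cell cycle homology region (TTTGAA) stood in 7.78% of the windows of genes higher by 2-fold or more, 11.8% of those lower and 10.3% of all. The TATA box (TATAAA) stood in 5.74%, 6.55% and 5.75%, nearly level between the higher genes and all.

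The targets of the compound shifted among themselves. Of the 11 zinc-dependent deacetylase genes, 10 were tested, 5 rose and 5 fell. Over all tested genes 43.4% were higher and 42.0% lower, so these counts lie near the background. Hdac1 and Hdac2, the closely related catalytic subunits of the NuRD, Sin3 and CoREST complexes, moved in opposite directions. Hdac1 stood at 2038, 1920.1 and 1819.9 in DMSO and 4505, 4458 and 4636 in TSA (log2 change 1.24 ± 0.045 SE, adjusted p = 1.08e-10). Hdac2 stood at 4817, 4954 and 4794 and 3087, 3056 and 3085 (log2 change -0.66 ± 0.034 SE, adjusted p = 2.49e-09). Per kilobase of transcript, Hdac2 was at 1085 and Hdac1 at 559 normalized counts in DMSO, and the order was the reverse in TSA, with 688 and 1316. Hdac3, the catalytic subunit of NCoR complexes, changed least, at 0.21, and Hdac8 fell by 0.81.

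Among the class II genes Hdac5 and Hdac6 rose by 1.59 and 1.51 on the log2 scale, HDAC6 being the tubulin deacetylase of the cytoplasm. Hdac7 fell from 677, 824 and 886 to 145, 152 and 116 (log2 change -2.53 ± 0.12 SE), and Hdac4 and Hdac10 fell by 0.85 and 0.96. Hdac11, the only class IV member, rose from 80.8, 72.7 and 67.8 to 534, 595 and 529.7 (log2 change 2.89 ± 0.10 SE). Groups were separate for each of these genes, as for 86.4% of all tested genes. Hdac9 stayed under the filter. Of the 7 sirtuin genes, which TSA does not inhibit, 4 rose and 2 fell, with Sirt7 at 1.08, Sirt2 at 1.06 and Sirt1 at -0.73.

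**Figure D3:**
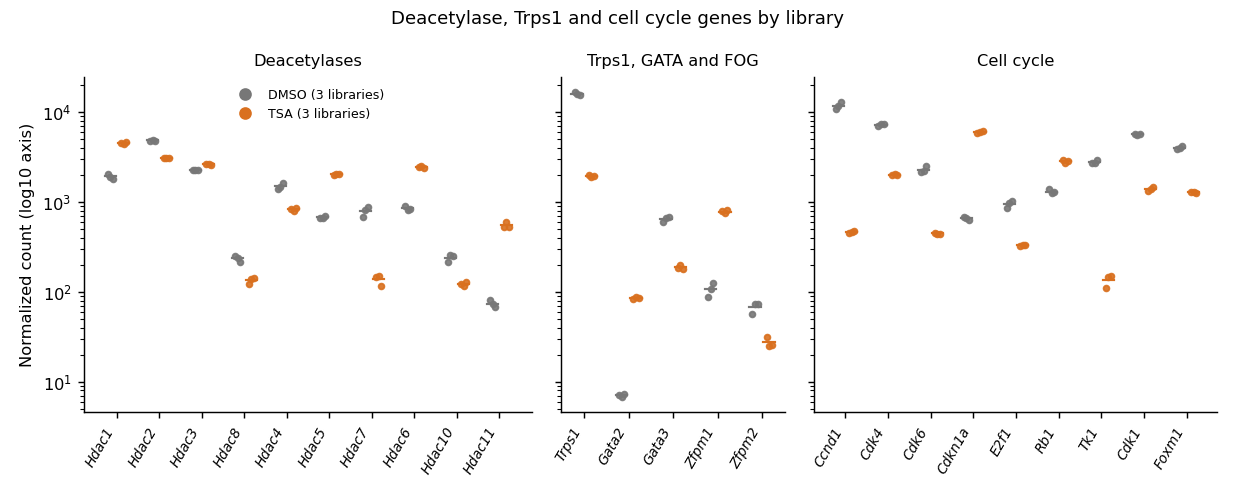
Normalized count on a log10 axis in each DMSO library (grey) and each TSA library (orange) for the 10 tested deacetylase genes, Trps1, other GATA-family genes and cofactors, and cell cycle genes; bars mark group means. Separate groups were required of every gene plotted, and 86.4% of all tested genes have them, so the separation is no finding. Hdac11 and Cdkn1a are higher in TSA and Trps1 and Ccnd1 lower.

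Genes for the complexes around the deacetylases moved both ways. Of 36 tested corepressor subunits, 14 rose (38.9%) and 20 fell (55.6%), beside 43.4% and 42.0% of all tested genes. All 36 were at 10 or more in every DMSO library, and of all genes at that level 38.7% were higher and 46.6% lower. Their median log2 change was -0.21 (-0.11 under quantile normalization). The deepest falls were in NuRD genes: Mta3 by 2.996, the helicase gene Chd3 by 2.49 and Mbd3 by 2.07. Mta3 was at 1130.4, 1229 and 1260.2 in DMSO and 157, 146 and 148 in TSA, with no overlap. The C-terminal binding protein genes Ctbp1 and Ctbp2 fell by 1.67 and 2.03, while Sap18 and Rcor2, of the Sin3 and CoREST complexes, rose by 1.79 and 1.06.

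The acetyltransferases, the enzymes that oppose the drug's targets, fell more uniformly. Of 14 genes, 11 fell and 2 rose, with a median of -0.46. Kat2b (PCAF) fell from 1524, 1409.9 and 1332 to 367, 371 and 355, a log2 change of -1.96 ± 0.06 SE. Ep300, Crebbp and Kat2a fell by 1.30, 0.95 and 1.28. Among 16 bromodomain reader and elongation factor genes 5 rose and 10 fell. Brd2 rose by 1.17, and Hexim1, the inhibitor of the elongation kinase P-TEFb, rose by 1.67. Brdt, the testis-specific member of the family, had 3 reads over the 3 DMSO libraries and stood at 77.5, 76.2 and 84.0 normalized counts in TSA, a ratio with a 95% counting interval of 25.8 to 372-fold.

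Chromatin genes further from the drug's targets also moved. The Polycomb repressive complex gene Bmi1 fell by 2.26 and Ezh2, the catalytic subunit of the other Polycomb complex, by 0.92, whereas Cbx2 rose by 1.56. The histone demethylase gene Phf2 fell by 2.93, the DNA methyltransferase genes Dnmt1 and Dnmt3a by 0.77 and 1.25, and Dnmt3b rose by 0.63. Of 16 tested linker and replacement histone genes 11 rose and 5 fell. H1f0, the linker histone of non-dividing cells, was at 6297, 5895 and 5448 in DMSO and 24679, 24858 and 25797 in TSA (log2 change 2.10 ± 0.051 SE). H2afy2, which encodes a macroH2A variant, fell by 3.73.

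The tested clustered histone genes went up in these mRNA libraries. Most mRNAs of this cluster are made in S phase without a poly(A) tail, and whether the reads came from tailed forms was not tested. Of 61 symbols 12 were tested and all 12 rose; 4 of the 12 passed the filter only through TSA, and all 5 at 10 or more in every DMSO library rose too. Hist1h1c stood at 78.8, 71.6 and 78.2 in DMSO and 1028, 995 and 1086 in TSA (log2 change 3.75 ± 0.08 SE, adjusted p = 1.56e-12). Hist1h2be went from 10.2, 5.59 and 4.17 to 287, 268 and 259.9, and Hist1h2bc and Hist2h2be rose by 2.59 and 2.25. Members of this cluster are near-identical and their reads could be split among copies, so the single values are uncertain.

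Trps1 itself fell 8.27-fold. It lies at chr15:50654752-50890463 on the - strand (GRCm38, GENCODE M21) and stood at 16654, 15988 and 15668 normalized counts in DMSO and 2009, 1905 and 1929 in TSA. The 3 TSA libraries were close together and far below the DMSO libraries (log2 change -3.05 ± 0.038 SE, adjusted p = 4.35e-14). Of the other GATA-family genes, Gata3, a luminal regulator of the mammary gland, fell from 602, 671 and 674 to 187, 198 and 182 (log2 change -1.78). Gata2, better known from blood and endothelium, rose from 7.16, 6.71 and 7.30 to 82.9, 88.3 and 85.0, and Zfpm1, the gene of the GATA cofactor FOG1, rose by 2.88. Zfpm2, the FOG2 gene, fell by 1.26.

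Most regulators of mammary epithelium fell with them. Of 27 tested factors 17 fell and 8 rose, with a median of -0.65. Elf5, the alveolar factor, fell from 41.9, 42.5 and 24.0 to 6.55, 4.53 and 11.9, and Trp63, the basal regulator p63, from 2462, 2497 and 2526 to 537, 509 and 535. Neither gene's groups overlapped. Stat5b fell by 2.37 and Stat5a, its neighbour and the main mediator of prolactin, by 0.65. Prlr, the prolactin receptor, fell by 2.49. In the opposite direction Elf3 rose by 2.82, Spdef, a factor of secretory epithelia, by 2.62 (1.05 and short of the threshold under quantile normalization), and Bcl11a by 2.57. Klf5 rose by 0.99, Foxa1, Pgr and Sox10 stayed under the filter, and Esr1, at a log2 change of 0.41, did not pass the test (adjusted p = 0.181); under quantile normalization it was at -0.93 and passed (adjusted p = 0.0122).

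Milk protein genes were at or near 0 in both groups. Wap and Csn1s2a had no read in the 6 libraries, and Csn2, the beta-casein gene, stood at 1.02, 0 and 0 in DMSO and 2.18, 0.754 and 0.988 in TSA. Other secretory products did move: Slpi, a secreted protease inhibitor, rose by 1.91, Lcn2 by 1.58 and Mfge8, the milk fat globule protein, by 1.49. Plin2, the coat protein of lipid droplets, fell by 1.63.

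The rises described next were taken from genes with a TSA mean above the median level, and the largest of them started from almost no reads. Some genes outside that choice rose as far, with a log2 change of up to 7.95 on chromosome 7. Vgf, a neuroendocrine secretory granule gene (chr5:137026392-137033351, + strand), had 1.02, 4.48 and 2.08 normalized counts in DMSO and 6117, 5935 and 6328 in TSA. Atp1b2, the sodium pump beta subunit of glia and neurons (chr11:69599736-69605942, - strand), had 1.02, 1.12 and 2.08 and 3058, 3015 and 3031. Those DMSO values rest on 7 and 4 reads over 3 libraries, and the TSA libraries of each gene lay close to one another. Ncan, a proteoglycan of brain matrix, went from 3.07, 3.36 and 5.21 to 1048, 1025 and 1144. Smpd3, the neutral sphingomyelinase used in exosome release, went from 2.05, 1.12 and 2.08 to 729, 787 and 849. For these and the next genes no DMSO library came near a TSA library. Slc17a7, the vesicular glutamate transporter, went from 6.14, 3.36 and 2.08 to 662, 693 and 684, and Unc13a, a synaptic vesicle priming factor, from 9.21, 11.2 and 9.38 to 1424, 1511 and 1316.

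Among the other large rises, Krtap1-5, a hair keratin-associated protein gene, went from 10.2, 20.1 and 8.34 to 1719, 1773 and 1829, with DMSO replicate 2 above the other DMSO libraries. Arc, an immediate early gene of neurons (chr15:74669083-74672570, - strand), went from 38.9, 39.2 and 29.2 to 4990.4, 5023 and 4811, and Clu, the secreted chaperone clusterin (chr14:65968483-65981547, + strand), from 124, 99.6 and 118 to 12997, 12718 and 13532. These 2 genes were measured with over 100 DMSO reads each (101 and 323), and their log2 changes were 7.08 ± 0.10 SE and 6.84 ± 0.07 SE. Smtnl2 and Dzank1 rose by 7.08 and 7.06, and Tspan13, a tetraspanin, by 7.08. Disp2, with 2 DMSO reads, stood at 724, 700.1 and 708 in TSA, a ratio with a 95% counting interval of 284 to 8485-fold.

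The falls described next were taken from genes above the median level, so all were well expressed in DMSO by choice. Some genes outside that choice fell as far, among them Il17b, an interleukin gene, by 4.78. Mmp14, whose promoter is printed above (chr14:54431612-54445364, + strand), fell from 4231, 4371 and 4385 to 84.0, 83.0 and 60.3 (log2 change -5.83 ± 0.11 SE, adjusted p = 4.77e-13). Brinp3, a retinoic acid induced gene (chr1:146494760-146902472, + strand), fell from 9669, 9013 and 9076 to 309, 328 and 323 (log2 change -4.85 ± 0.044 SE). Ccnd1, cyclin D1 of the G1 phase (chr7:144929931-144939925, - strand), fell from 10758, 11636 and 13098 to 454, 460.2 and 473. In each of these genes the lowest DMSO library was more than an order of magnitude above the highest TSA library. Aqp5, a water channel of glandular epithelium, fell from 1532, 1673 and 1647 to 49.1, 58.8 and 57.3, and Casp1, the inflammatory caspase, from 2216, 2086 and 1977 to 97.1, 92.8 and 71.2. Pi15, Plch2 and Kirrel fell by 4.45, 4.58 and 4.28, and the X-linked retrotransposon-derived gene Rtl3 by 5.61. Syt8 (chr7:142434850-142440396) and Tnni2 (chr7:142441808-142444410), a synaptotagmin and the fast troponin I, lie next to each other on the + strand of chromosome 7 and fell together, by 5.80 and 5.41. Whether reads that run on from Syt8 were counted for Tnni2 was not tested.

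**Figure D4:**
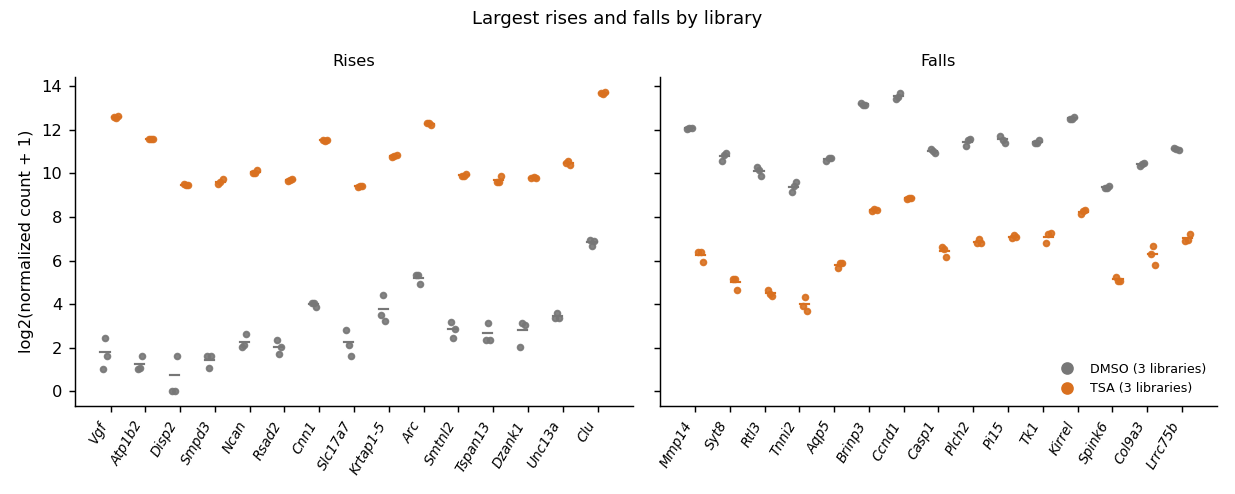
Log2(normalized count + 1) in each DMSO library (grey) and each TSA library (orange) for the 15 rises and the 15 falls that the naming rule selects; short bars stand at the group mean of the normalized counts. The rule required groups that do not overlap, so their separation is no finding; Vgf has the widest gap among the rises and Mmp14 among the falls.

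Cyclins and kinases of G1 mostly fell, and the genes of their inhibitors moved both ways. Of 19 G1 genes 12 fell and 7 rose. Besides Ccnd1 the falls included Cdk6 by 2.35, Cdk4 by 1.85, Ccne2 by 1.71 and the phosphatase gene Cdc25a by 1.499. The other D-type cyclins went the other way, Ccnd2 by 0.34 and Ccnd3 by 0.60. Cdkn2b, the p15 inhibitor, rose by 1.31, while Cdkn1b (p27) and Cdkn2c (p18) fell by 0.77 and 1.23. E2f1, the transcription factor released when the pocket proteins are phosphorylated, fell from 866, 968 and 1032 to 325, 331 and 336. Rb1, which restrains it, rose from 1383, 1249 and 1295 to 2941, 2741 and 2886. Both genes' groups were separate, and among 16 E2F and pocket protein genes 10 fell and 5 rose. The partner gene Tfdp1 fell by 1.95 and the mitotic gene activator Mybl2 by 1.75.

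Replication and mitosis genes fell almost as a body. Of 38 S phase genes 32 fell, 4 rose, and the median was -0.86. Of 34 G2 and mitosis genes 33 fell, 0 rose, and the median was -1.17. Tk1, the thymidine kinase of S phase, fell furthest, from 2709, 2712 and 2921 to 109, 146 and 151. The helicase genes Mcm3 and Mcm6 fell by 2.26 and 2.08 and both ribonucleotide reductase genes, Rrm1 and Rrm2, by 2.00 and 2.13. The mitotic kinase genes Plk1, Aurka and Aurkb fell by 1.91, 1.71 and 1.69, close to their activator Foxm1, at -1.65.

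Repair genes followed replication only in part. Of 28 homologous recombination and Fanconi genes 20 fell and 5 rose, with a median of -0.60. Nbn fell by 2.60 and Fancl by 1.99, while Brca2 rose by 0.23. Of 22 mismatch and excision repair genes 8 rose (36.4%) and 13 fell (59.1%), with Xpc, the damage sensor, at 1.48 and the glycosylase gene Neil3 at -2.58. All 22 were at 10 or more in every DMSO library, and of all such genes 38.7% were higher and 46.6% lower. Checkpoint kinase genes fell, Chek1 by 1.85 and Wee1 by 2.07.

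Several p53-regulated genes rose although the p53 gene fell. HC11 cells are known to carry mutant p53 alleles. Trp53 went from 2941, 3162 and 3233 to 852, 800.4 and 802, a fall of 1.93 on the log2 scale with no overlap. Of 26 tested genes of the pathway list 18 rose and 8 fell. Besides Cdkn1a, Trp53inp1 rose by 4.18, the death receptor gene Fas by 3.79, Btg2 by 3.01 and the stress genes Gadd45g and Gadd45a by 2.93 and 2.77. Mdm2, the ubiquitin ligase for p53, rose by 1.38. Bax and Phlda3, which the protein also controls, fell by 0.30 and 1.80.

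Death genes moved both ways. Bmf and Bcl2l11 (BIM), which oppose survival proteins, rose by 3.49 and 2.67. Bmf stood at 60.4, 49.2 and 42.7 in DMSO and 577, 561 and 588 in TSA, without overlap. The survival genes Bcl2l1 and Bcl2 fell by 1.23 and 0.97, and so did Bak1, a pore-forming executor, by 1.92. Of 20 caspase and death receptor genes 12 fell, among them Casp8 and Casp12 by 2.63 and 3.62, while Casp9 rose by 0.95. The inhibitor genes Cflar and Xiap fell by 1.78 and 1.68.

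Myc and its antagonists went in opposite directions. Myc fell from 1775, 2314 and 2577 to 859, 828 and 764 (log2 change -1.43 ± 0.11 SE, adjusted p = 8.42e-08), and Mycn and Mycl fell by 1.86 and 0.93. Genes of the MAX partners that compete with it rose: Mxd1 by 3.23, Mxi1 by 2.59 and Mxd4 by 1.32. Mlxipl, which encodes the glucose-responsive factor ChREBP, rose from 0, 4.48 and 0 to 133, 121 and 101. All 4 of these genes had groups that did not overlap, as did 86.4% of all tested genes.

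Genes for making ribosomes and protein mostly fell. Of 42 ribosome biogenesis genes 30 fell and 9 rose, with a median of -0.60. The nucleolar proteins nucleolin (Ncl) and nucleophosmin (Npm1) fell by 1.36 and 1.42, Nop56 by 2.30, and Ubtf, the factor for ribosomal RNA transcription, by 2.18. Cytosolic ribosomal protein genes fell in 57 of 80 cases but by little, with a median of -0.24 (-0.091 under quantile normalization). Of 32 translation factor genes 24 fell and 5 rose, with a median of -0.40 (-0.26 under quantile normalization), and of 20 tRNA synthetase genes 14 fell. Over all tested genes 42.0% were lower. Well expressed genes of any kind leaned downward. The median change was -0.22 for genes at 1000 to 3000 in DMSO replicate 1 and -0.44 at 3000 to 10000. How much the starting level adds to the falls of these lists was not tested.

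RNA-processing genes mostly fell too. The heterogeneous nuclear ribonucleoproteins, which bind nascent transcripts, fell in 17 of 19 cases with a median of -1.17, led by Hnrnpd at -1.92 and Hnrnpa2b1 at -1.90. Hnrnpa2b1 stood at 45271, 45493 and 43967 in DMSO and 12323, 11946 and 11762 in TSA, far apart. Of 42 spliceosomal and SR protein genes 26 fell and 11 rose. Small nucleolar RNA host genes fell in 6 of 10 cases, and 31 of 45 tested small nucleolar RNA symbols were lower and 3 higher, although such short RNAs are poorly sampled by an mRNA library and lie inside introns of their hosts. Malat1 and Neat1, nuclear-retained RNAs, rose by 2.49 and 1.30.

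**Figure D5:**
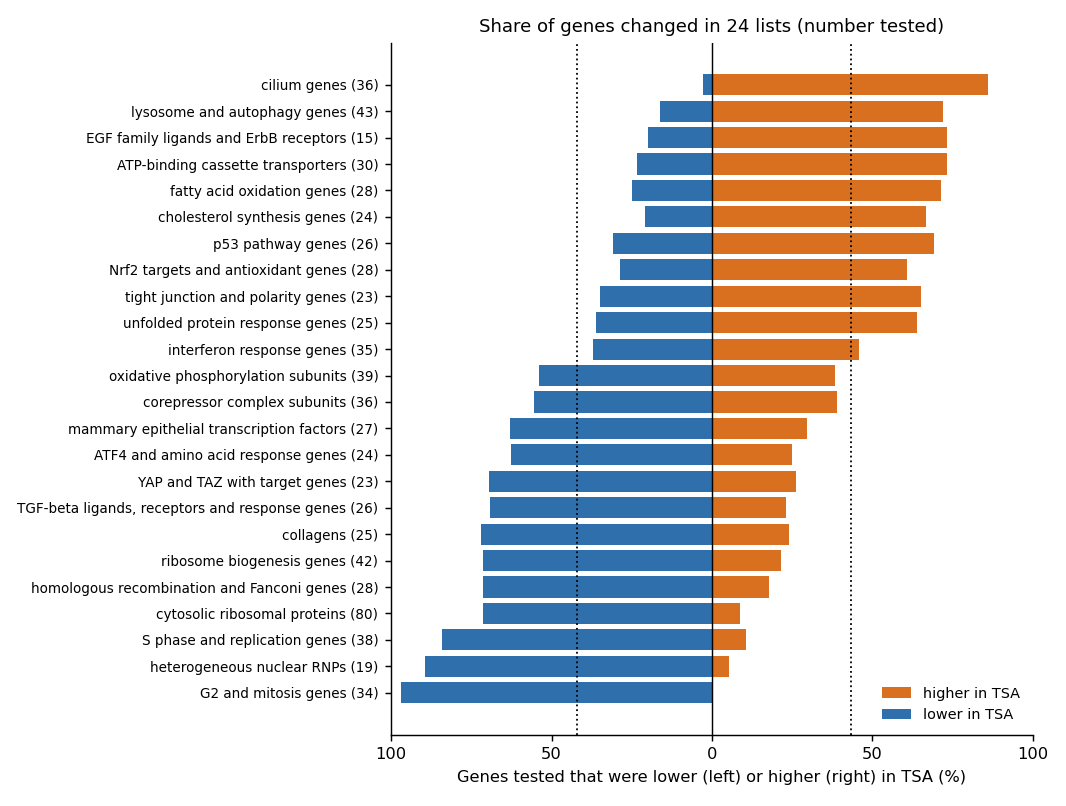
Percent of tested genes higher (orange, to the right) and lower (blue, to the left) at an adjusted p under 0.05 in 24 gene lists, with the number tested after each name; dotted lines mark the shares over all 12883 genes, 43.4% higher and 42.0% lower. G2 and mitosis genes and heterogeneous nuclear RNPs lie almost wholly to the left, and cilium and lysosome genes lie mostly to the right.

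Lysosome and autophagy genes mostly rose. Of 43 tested 31 rose and 7 fell, with a median of 0.52, where 43.4% of all tested genes were higher. Ctsl, the protease cathepsin L, went from 5571, 5175 and 5133 to 38525, 38757 and 41549, and Sqstm1, the autophagy receptor p62, from 4280.3, 4340.4 and 4128 to 19265, 19287 and 19974. In both the groups were far apart. Grn, the gene of the lysosomal protein progranulin, rose by 2.17, Neu1, a sialidase, by 2.28 and Ctsf by 3.91. Mitf, a relative of the lysosomal master factor TFEB, rose by 2.83, while Tfeb itself, at -0.18, did not pass the test (under quantile normalization it did, at -0.28), and Ctsd fell by 0.28.

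Lipid genes were split by pathway. Fatty acid oxidation genes rose in 20 of 28 cases, with a median of 0.84: Cpt1a, the gate to the mitochondrion, by 1.41, the peroxisomal gene Ehhadh by 2.04 and Acad11 by 2.43. Of 24 genes of fatty acid and lipid synthesis 12 rose and 10 fell, near the background. Fasn, the synthase, fell from 24830.5, 28202 and 32374 to 7688, 7868 and 8099, while Acacb and Dgat2, an acetyl-CoA carboxylase and a triglyceride-forming enzyme, rose by 2.74 and 3.48. Cholesterol synthesis genes rose in 16 of 24 cases, with Mvk at 1.98, Mvd at 1.71 and Insig1 at 1.71.

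Glucose genes were mixed as well. Of 21 tested glycolysis genes 13 rose and 6 fell. The transporter gene Slc2a1 rose by 1.70, Aldoc by 3.22 and the regulatory enzymes Pfkfb4 and Pfkfb3 by 2.67 and 1.96. Ldha, which makes lactate, fell from 22122, 21786 and 20835 to 7639, 7822 and 8104, and Eno1 fell by 0.64. Epas1, the HIF-2 alpha gene, rose by 4.50 and Hif1a fell by 0.74. Oxidative phosphorylation subunit genes were near the background, with 15 rises and 21 falls among 39.

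Stress genes differed by pathway. Of 25 unfolded protein response genes, which include chaperones and sensors of the endoplasmic reticulum, 16 rose and 9 fell, with the chaperone gene Hspa5 (BiP) at 0.94, Calr at 1.36 and the sensor genes Atf6 and Ern1 at 1.39 and 1.01. The ATF4 targets for amino acid supply fell in 15 of 24 cases, with Slc7a11, the cystine transporter, at -2.11, Cbs at -2.73 and Atf4 at -0.90. Atf3, in the same list, rose from 153, 157 and 145 to 5367, 5479.9 and 5603. The inducible heat shock genes Hspa1a and Hspa1b, which are near-identical so that reads may be split between them, rose by 5.25 and 2.91, while Hsph1 fell by 0.61.

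Antioxidant and detoxifying enzymes leaned upward. Of 28 genes 17 rose and 8 fell, and of the 26 at 10 or more in every DMSO library 15 rose and 8 fell. Txnip, with the CCAAT boxes printed above, had the largest log2 change of the list, 4.80. Srxn1 rose by 2.75, Hmox1 by 2.39, Gclc by 2.24 and Nqo1 by 1.68. Glutathione S-transferases rose in 11 of 14 cases, 4 of which passed the filter only through TSA. Among those at 10 or more in every DMSO library 7 of 10 rose. ATP-binding cassette transporters, which export lipids and drugs, rose in 22 of 30 cases and in 17 of 25 of the better expressed ones, led by Abcb9 at 4.07, Abca6 at 3.97 and Abca4 at 3.46. Among the metallothioneins, small zinc-binding proteins, Mt2 and Mt1 rose by 5.45 and 3.45, and Mt3, with no DMSO read, was at least 41.5-fold higher against the floor of 3 counts over the group.

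Basal keratins fell and the simple epithelial keratin Krt18 rose. Krt5, Krt15 and Krt14, of basal and progenitor cells, fell by 3.16, 4.05 and 1.45. Krt5 stood at 36867, 40226 and 41077 in DMSO and 4320.5, 4361 and 4558 in TSA. Krt18 went from 104, 109.7 and 134 to 405, 416 and 431, while its partner Krt8 fell by 0.41. No keratin named here had overlapping groups. Krt20 had no DMSO read and was at least 47.5-fold higher. Across the 14 tested keratins 9 fell and 4 rose.

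Junction genes differed by the kind of junction. Tight junction and polarity genes rose in 15 of 23 cases, with a median of 0.71. Cldn4 went from 38.9, 21.3 and 36.5 to 1465, 1499.7 and 1570.2 and Tjp3, a scaffold protein, from 3.07, 3.36 and 2.08 to 181, 196 and 216. In the 20 of these genes at 10 or more in every DMSO library 12 rose, among them Ocln at 2.19 and Crb3 at 3.10. Desmosome and adherens junction genes fell in 14 of 21 cases, with the desmogleins Dsg3 and Dsg1a at -3.50 and -2.77 and N-cadherin, Cdh2, at -1.90, while Pkp2 rose by 2.71. Epcam was nearly level, at 0.10 (adjusted p = 0.0296).

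Most ligands of the EGF receptor rose while feedback genes downstream were divided. Of 15 EGF family, receptor and feedback genes 11 rose and 3 fell. Areg, amphiregulin, the ligand that drives duct growth, went from 248, 245 and 266 to 4878, 4618 and 4900.5 (log2 change 4.24 ± 0.049 SE). Errfi1, an inhibitor of the receptor, went from 768, 811 and 829 to 8844, 8479 and 8569. Both genes' groups were far apart. Btc and Hbegf rose by 2.35 and 2.09, whereas the receptor genes Egfr and Erbb2 fell by 0.50 and 1.15 and Nrg1 by 2.09. Of the ERK feedback genes, Dusp6, Spry2 and Etv4 fell by 2.42, 2.14 and 2.42, and Dusp5, Dusp1 and Fosb rose by 3.54, 2.99 and 3.31.

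TGF-beta and Hippo pathway genes mostly fell. Of 26 TGF-beta genes 18 fell and 6 rose, with a median of -0.84. Fst, the activin antagonist follistatin, fell from 2917, 3058 and 3179 to 195, 183 and 179.9, and Tgfbr2, the signalling receptor, by 2.23. Against the rest, the coreceptor gene Tgfbr3 rose by 3.34. Of 23 genes of YAP, TAZ and their targets 16 fell and 6 rose, with a median of -0.81. Yap1 fell by 2.33 while its paralogue Wwtr1 (TAZ) rose by 0.92. Igfbp5, a binding protein of insulin-like growth factors, fell from 113745, 116407 and 124273 to 9304, 9128 and 9482.

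Other growth and developmental signals moved gene by gene. Among Wnt genes Rnf43, the receptor-removing ligase, rose by 1.96 and Lgr6 fell by 3.54. Notch targets were split, with Hey2 at 4.62 and Hey1 at -1.69, and the ligand gene Jag2 fell by 1.55. In the Hedgehog pathway Smo, the signal transducer, fell by 2.77 and Gas1, a coreceptor, by 2.90. The BMP genes Bmpr1a and Smad1 fell by 1.33 and 1.21. Interferon response genes had 16 rises and 13 falls among 35, near the background, and 11 rises and 13 falls among the 30 at 10 or more in every DMSO library. The rises included Irf7 at 6.08, Usp18 at 5.27 and Bst2 at 3.16, with Tmem173, the adaptor STING, at -2.52. Rsad2, the antiviral protein viperin, went from 4.09, 2.24 and 3.13 to 802, 815 and 862.

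Inflammatory and antigen presentation genes did not move as a unit either. Cxcl10, an interferon-induced chemokine, went from 3.07, 4.48 and 1.04 to 475, 466 and 515, and Il33 rose by 4.05. Il6, Lif and Cxcl12 fell by 2.86, 3.24 and 2.83. Of 17 antigen presentation genes 13 rose, and of the 12 at 10 or more in every DMSO library 8 rose and 4 fell. H2-D1 rose by 3.63, although class I genes share sequence, Tap1 by 2.11 and B2m by 0.69, and the peptide trimmer Erap1 fell by 3.12. Complement genes C3 and C1s1 rose by 3.33 and 3.61.

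Collagen genes mostly fell. Of 25 collagen genes 18 fell and 6 rose, with a median of -0.995, and of the 23 at 10 or more in every DMSO library 18 fell and 4 rose. The chains of collagen I went apart: Col1a2 fell from 3587, 3757 and 4104 to 293, 324 and 284 and Col1a1 rose from 78.8, 72.7 and 89.6 to 404, 399 and 365. Neither gene's groups overlapped. Col3a1 and the hemidesmosomal Col17a1 fell by 3.45 and 3.74, and Tnc, tenascin C, by 2.96. While Mmp14 fell, Plat, tissue plasminogen activator, rose from 219, 184 and 168 to 18228, 18109.9 and 19077, and Mmp12 and Mmp17 rose by 5.10 and 5.12. The hemidesmosome integrin gene Itgb4 fell by 2.00 and Itgb6 by 2.81.

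Cytoskeletal genes changed in composition. Cnn1, printed above, and Flnc, a muscle filamin with 2 DMSO reads and 122, 103 and 106 normalized counts in TSA, rose, the latter by a ratio with a counting interval of 43.4 to 1309-fold. Vcl, vinculin, rose by 1.89 and Rhob by 2.43, while the tropomyosin genes Tpm4 and Tpm1 fell by 2.71 and 1.58. Among tubulins the neuronal Tubb3 rose from 214, 266 and 335 to 2014, 1973 and 2106, and Tubb5, the common beta-tubulin of dividing cells, fell from 38027, 40127 and 41231 to 9047, 8879 and 9239.6. The alpha-tubulins went in the same manner, Tuba1a at 1.86 and Tuba1b at -1.20, with the proviso that alpha-tubulin genes are close copies.

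Cilium genes rose in most cases. Of 43 listed, 36 were tested, 31 rose and 1 fell. Of the 28 at 10 or more in every DMSO library 24 rose and 1 fell, with a median of 0.97, where 38.7% of all such genes were higher. Dnah2, an axonemal dynein heavy chain, went from 2.05, 1.12 and 1.04 to 22.9, 24.1 and 14.8, and Rfx2, a transcription factor of ciliogenesis, rose by 1.62. Groups did not overlap in either. Foxj1, the master regulator of motile cilia, stood at 209, 233 and 200.1 and 315, 291 and 316 and rose by 0.52. Tekt1, a tektin with no DMSO read, was at least 13.3-fold higher, and Ccdc40, with 1 read in DMSO, stood at 183, 201 and 177 in TSA.

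Genes of other lineages appeared in TSA, but few listed genes reached the filter. Of 57 synaptic and neuronal genes 20 were tested and 7 of them passed only through TSA. Among the 12 at 10 or more in every DMSO library 5 rose and 2 fell. Uchl1, a neuronal ubiquitin hydrolase, had no DMSO read and stood at 145, 174 and 154 in TSA, at least 154-fold higher. Snap25 and Nefl stayed under the filter. Of 48 germline genes 9 were tested and 8 rose, including Tex19.1 at 6.36 and Msh5 at 2.24, but 5 of the 9 passed only through TSA and only 3 were at 10 or more in every DMSO library, all of which rose. Of 40 muscle genes 17 were tested, 10 rose and 5 fell, with Ryr1, the calcium release channel, at 5.86 and Tnnt2, cardiac troponin T, at -2.56. Of these 17, 7 passed only through TSA. The direction turns among the 7 muscle genes at 10 or more in every DMSO library, of which 1 rose and 5 fell, with a median of -1.77. Of 28 liver and kidney genes 5 were tested.

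Positional identity genes mostly fell. Of 39 Hox genes 19 were tested, 15 fell and 2 rose, with a median of -1.34. Hoxb2, Hoxb3, Hoxb5 and Hoxb6, neighbours in one cluster, fell by 3.29, 3.07, 2.93 and 2.82. Hoxb2 stood at 295, 324 and 312 in DMSO and 37.1, 24.9 and 31.6 in TSA, without overlap. Of 18 tested protocadherins 14 fell, mostly genes of the beta cluster, whose copies share sequence, and 3 rose. Of the 15 at 10 or more in every DMSO library 14 fell and 0 rose. Pcdh10 and Pcdh19, under that level in DMSO, rose by 5.002 and 3.46. H19, the imprinted noncoding RNA, fell by 3.36, and Mest and Plagl1, also imprinted, rose by 3.74 and 3.28.

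By chromosome, the X had the smallest share of genes higher by 2-fold or more among the chromosomes of the nucleus, 13.7% of 393, and the largest share lower, 22.6%. Xist, the noncoding RNA of the inactive X, fell from 16176, 15852 and 17249.5 to 3753, 3684 and 2975. Of 38 long noncoding RNAs that share a bidirectional promoter 22 rose and 2 fell, and of the 26 at 10 or more in every DMSO library 13 rose and 2 fell. Of 199 single-exon protein-coding genes 106 rose and 55 fell, and of the 171 at 10 or more in every DMSO library 79 rose and 55 fell. The labels do not say that counting used the strand, so antisense and overlapping genes cannot be told apart from their partners.

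The response can be set beside a second experiment of the series, in which HC11 cells received either sgTrps1, a guide aimed at Trps1, or the scrambled control sgScr, with 2 libraries for each guide. Trps1 mRNA was at 14212 and 15186 in the sgScr libraries and 14786 and 15418 in the sgTrps1 libraries of that table, where it did not pass the test (log2 change 0.04, adjusted p = 0.675), which need not bear on the protein. Of 12430 genes tested there, 6.81% were higher and 6.77% lower by 2-fold or more with the guide. Of the 652 such higher genes also tested for TSA, 41.4% were higher and 19.02% lower by 2-fold or more in TSA. Of the 683 lower genes, 29.7% were higher and 22.8% lower in TSA, beside 16.9% and 16.6% of all 10982 genes tested in both. No test of the difference between these shares was made.

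Single genes went the same way in both experiments or opposite ways. Vgf, the largest rise in TSA, fell with the guide (20.96 and 29.4 in sgScr, 8.97 and 10.3 in sgTrps1), as did Clu, with a log2 change of -0.31. Aqp5 and Casp1, among the largest falls in TSA, also fell with the guide, by log2 changes of -1.17 and -1.23. Cdkn1a, at 0.06 (adjusted p = 0.466), and Mmp14, at -0.13 (adjusted p = 0.0634), did not pass the test with the guide. Each arm of that experiment rests on 1 guide and 2 libraries, and its table was normalized apart from the TSA table.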

How the data were processed

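RNA was extracted with the AllPrep DNA/RNA kit and made into libraries with a TruSeq RNA kit, per the labels' protocols; TopHat, HTSeq and GRCm38 are named in the submitters' processing notes, without versions, and the sources used here do not give the strand setting. The authors deposited the log2 of normalized counts plus 1 per gene symbol, together with a table of fold changes and adjusted p-values whose tool is not named. All values could be turned back into whole reads (100% within 0.01 reads or a share of 1e-05), which gave the depths. From the deposited log2 values, 14 symbols stored as calendar dates were dropped, and symbols with a normalized count of 10 or more in at least 3 libraries were kept. limma 3.58.1 in R 4.3.3 (linear fit, moderated variance with a trend) compared TSA with DMSO over all 12883 kept genes, with Benjamini-Hochberg adjustment, and the same was done for the guide table (10 or more in at least 2 libraries, 12430 genes). Counts were simulated from the DMSO means and the real library sizes, with the same assumed dispersion for every gene and not the observed spreads. In these, 68% of genes changed by 0.5 on the log2 scale and 90% of those changed by 1 were called. Of the unchanged genes 0.0788% were called.

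The genes named in the text are the 15 largest rises and 15 largest falls above the median level with groups that do not overlap, and, in each list or family, fixed key genes and the 6 members with the largest change. The gene lists, and this experiment itself, were chosen with earlier results of these data known, so list counts are descriptions read against the shares over all tested genes; no list test was made. Intervals and floors of 3 counts cover counting error only, at 95% (exact). Levels per kilobase use GENCODE M21 exon lengths, and promoter windows come from RefSeq on GRCm38.p6, matched by symbol for 9846 of the kept genes. Promoters of Vgf, Clu, Ccnd1, Trps1 and Atp1b2 are named only. The labels do not say whether replicate numbers pair the samples, and the main fit used no pairing. The deviations of same-numbered DMSO and TSA libraries from their group means correlated at -0.084, -0.0032 and -0.063 across genes. Such values cannot show that the samples were unpaired. Alternatives were other scalings, pseudocounts, no filter, no variance trend, limma-voom on the recovered reads, a replicate block and leaving out each library. The values of some members of the lists are not reported here.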

Additional observations from a re-analysis of the deposited data

How the results depend on the processing

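Under 14 alternatives (2 other scalings, 2 other pseudocounts, no filter on low values, no variance trend, limma-voom on the recovered reads, a replicate block and the omission of each of the 6 libraries) no gene called both ways changed direction, except for 7 genes under quantile normalization, none of them named in the text. Leaving out each library in turn gave 5414 to 5611 higher and 5249 to 5419 lower genes, with 2719 to 2732 higher and 2090 to 2138 lower by 2-fold or more. Without the filter 4415 genes were higher by 2-fold or more, against 2720 with it, since more genes near 0 in DMSO were tested. The fit with a replicate block gave 5532 higher and 5356 lower genes and moved no count of calls by over 1.5 times. The share of called genes that were higher ranged from 48.7% (quantile normalization) to 56.2% (no filter). For the guide comparison 8375 genes passed the test, 6562 to 8686 with 1 library left out and 8192 with the block. Of 1596 values of list medians (114 lists), 172 moved by more than the spread between replicates, for 82 lists under quantile normalization and 55 under limma-voom. The largest move was 1.91, and 16 values had the other sign, none of them a median printed in the report. Under limma-voom the corepressor median was -0.14.

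Among the named genes, Epcam lost its call without the variance trend, with the block, and without DMSO replicate 3 or any 1 TSA library; Spdef, at 1.05, lost it under quantile normalization, where Esr1, at -0.93, and Tfeb, at -0.28, gained one. The cause was not tested. Depth limits genes with few DMSO reads, whose folds rest on counts of 7 or fewer for Vgf, Atp1b2 and Disp2.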

Other observations

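Of 22 tested circadian clock genes, 9 rose (40.9%) and 12 fell (54.5%), beside 43.4% and 42.0% of all tested genes. Of the 21 at 10 or more in every DMSO library 8 rose (38.1%) and 12 fell (57.1%), beside 38.7% and 46.6% of all such genes. The genes below are single members of this list. Per2, a repressor of the loop, fell from 779.5, 1005 and 1031 normalized counts in DMSO to 155, 146 and 115 in TSA, and Arntl (BMAL1), which drives the loop, rose from 829.7, 830.3 and 764 to 2195, 2219 and 2315. Groups did not overlap in either. Nr1d2 and Nr1d1, the REV-ERB repressors of Arntl, fell by 2.06 and 1.23 on the log2 scale, while Rora, which acts on the same elements, rose by 1.77. Clock, the partner of BMAL1, fell by 1.04.

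Nuclear receptors and ion channels moved as well. The immediate early receptors Nr4a1, Nr4a2 and Nr4a3 rose by 2.83, 2.12 and 2.61, and Nr3c2, the mineralocorticoid receptor, went from 11.3, 7.83 and 10.4 to 302, 313 and 294, with all TSA libraries above all DMSO libraries. The vitamin D receptor gene Vdr fell by 1.91, Rarg, a retinoic acid receptor, by 2.03, and Nr3c1, the glucocorticoid receptor on which milk protein expression depends, by 0.74. Among 24 tested receptors 12 rose and 10 fell, close to the shares over all genes. All 8 tested calcium channel genes rose, 4 of them past the filter only through TSA, and so did all 3 at 10 or more in every DMSO library, with Cacna1g at 3.09 and Cacnb1 at 1.92.

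Other large changes were of single genes. The semaphorin gene Sema3a fell by 3.96 while Sema6b and Sema6c rose by 5.97 and 5.13. Il17b fell from 509, 561 and 564 to 14.2, 19.6 and 23.7, and Il17rd, related to the receptors of such ligands, rose by 4.05. Aldh1a1, a retinoic acid-forming enzyme also used as a progenitor marker, went from 2.05, 2.24 and 1.04 to 277, 275 and 271, while Ly6a and Cd200, surface genes used to sort mammary progenitors, fell by 2.80 and 3.52. Groups were separate for each gene named here, as for 86.4% of all tested genes.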
